A study of Rattus norvegicus with 16 samples.

Results

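The cytosolic ribosomal proteins are the protein subunits of the ribosome that translates messenger RNA outside mitochondria. Their genes were taken as the protein-coding rows of the expression table whose symbol is Rpl or Rps followed by a number, with optional letters a, x, y, l or p. The ribosomal protein kinases of the Rps6k family do not match that form. The rule gave 102 rows of 31141, which carry 77 symbols: 39 rows for the small subunit (Rps) and 63 for the large subunit (Rpl). Of the 102 rows, 70 had an intron (a transcript length shorter than the gene's span) and 32 were single blocks, the form that reverse-copied gene copies take. The rows of one symbol share sequence: 15 symbols sat on 40 rows. Where a symbol had several rows, the row with the highest mean keeps the plain symbol below, and the others are named by their chromosome.

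Poly-A RNA from the tibialis anterior, a fast muscle at the front of the shin, was sequenced in rats of the Wistar-Imamichi strain. In WT_ND the 4 libraries came from wild-type rats on a normal diet, in DMD_ND the 6 libraries came from rats with genotype Dmd on the normal diet, and in DMD_KD the 6 libraries came from rats with genotype Dmd fed MCTKD. Dmd encodes dystrophin, which anchors the muscle fibre's inner skeleton to the matrix around it and whose loss causes Duchenne muscular dystrophy. Diets were given from weaning until 9 months of age. The labels give neither the Dmd allele nor the meaning of MCTKD, and there was no wild-type group on that diet. Whether each library stands for its own rat is also not stated, and p-values here reflect only the variation between the libraries, some of which may be technical.

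Each ribosome holds a single copy of nearly every ribosomal protein, so the cell has to make them in matched amounts. Their messenger RNAs begin with a cytosine followed by a run of pyrimidines, the terminal oligopyrimidine tract, through which the mTORC1 kinase pathway and the protein Larp1 control their translation together. Striated muscle has an exception to the uniform set: Rpl3l, a paralog of the large-subunit protein Rpl3 that is made in heart and skeletal muscle, where it can take the place of Rpl3 in the ribosome. Rpl3 lies near the peptidyl transferase centre, where amino acids are joined. In regenerating and growing muscle Rpl3 is known to rise while Rpl3l falls.

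The sequence at the transcription start is shown first because the tract described above would begin there. Promoters from the RefSeq table, build GRCr8, were matched for 54 of the 77 symbols, by symbol and chromosome. Each line gives 20 bases before and 10 bases from the annotated start, 5′ to 3′, with capitals marking an unbroken run of C and T that opens with C at the start base. The first 5 are those genes named in the results whose start opened with such a run, and the last 3 are paralogs or a parent described below whose annotated start did not.
Rps15, chr7:10068106-10068135, minus strand: gcagccgctgacaccgcttcCTTTTCCCag
Rpl19, chr10:83519044-83519073, plus strand: gagcccgcgaccagcaagctCTTTCCTTTC
Rps27, chr2:177964597-177964626, minus strand: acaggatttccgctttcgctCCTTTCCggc
Rpl22, chr5:168117941-168117970, plus strand: cctgcgtagtgcgcccccctCCCTTTCTgc
Rps3a, chr2:173827033-173827062, minus strand: cgcgcgagttgtacttccgcCCTTTTggct
Rpl3, chr7:113507981-113508010, minus strand: ctgcaccagcgcctgctcgatctctatcgg
Rpl3l, chr10:14258426-14258455, plus strand: catttgacctctggtgcctggtggggaggt
Rpl22l1, chr2:113683176-113683205, plus strand: tgagcgctccgtggatatccggttccgagt

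A run of 5 pyrimidines opening with C exactly at the start base was present in 16 of the 54 matched ribosomal protein genes, or 29.6%. The same held for 264 of 9221 other genes expressed in this muscle (2.86%) and for 2.63% of all 33469 promoters in the table. Allowing the run to begin up to 10 bases on either side of the start raised the counts to 39 of 54 (72.2%), against 29.1% of other expressed genes and 28.9% of all promoters. Only the strand of the gene was searched, and a match describes letters at an annotated start, not a mapped messenger RNA end in this muscle.

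The libraries held between 17125084 and 28116085 reads assigned to genes. Levels are FPKM, by name fragments per kilobase of transcript per 1000000 reads. The read total that the deposited FPKM imply differs from the assigned reads, so the values carry a further scaling between libraries. For library 1 of WT_ND the implied total was 10.9 times 1000000 reads, against 19232381 assigned. It lay below the assigned reads in every WT_ND library and library 3 of DMD_KD, and above them in the others. How that scaling was set is not stated in the sources used here. Dmd itself stood at 4.13 to 11.9 FPKM in WT_ND, 1.37 to 1.98 in DMD_ND and 0.546 to 2.04 in DMD_KD, with every mutant library below every wild-type library. The label of a skeletal muscle was met: 10 markers of the skeletal muscle fibre, such as Ckm and Acta1, summed to 64484 to 118765 FPKM in WT_ND. Several libraries stood apart on that sum. Libraries 1 and 4 of WT_ND reached 118765 and 117463 while libraries 3 and 9 stood at 64529 and 64484, and library 3 of DMD_KD reached 101936 while the other 5 of its group lay between 31924 and 48409. Some results that turn on these libraries are given with and without them, and the medians of the family are given with them only.

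The largest rise and the largest fall in the whole family fell on one protein and its muscle paralog. Rpl3 (ENSRNOG00000016896, chr7:111621610-111636468, minus strand, mRatBN7.2) stood at 24.7, 20.1, 29.7 and 31.2 FPKM in the 4 WT_ND libraries. In DMD_ND it ranged from 116 to 174 with a median of 131, and in DMD_KD from 97.0 to 139 with a median of 123. Every mutant library was thus above every wild-type library by a wide margin, and the 2 mutant groups overlapped. On the log2(FPKM + 1) scale Rpl3 rose by 2.35 (SE 0.15, 5.09-fold, limma adjusted p = 1.67e-09) in DMD_ND and by 2.14 (SE 0.15, 4.40-fold, limma adjusted p = 6.63e-09) in DMD_KD, both against WT_ND. The counts behind these values were 612 to 1149 reads per WT_ND library and 4581 to 10553 per mutant library.

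Rpl3l (ENSRNOG00000014641, chr10:13753886-13764457, plus strand, mRatBN7.2) moved the other way. Its levels were 547, 321, 559 and 322 FPKM in WT_ND, 115 to 182 (median 155) in DMD_ND, and 126 to 425 (median 188) in DMD_KD. All DMD_ND libraries lay below all WT_ND libraries. In DMD_KD, 5 of 6 did, and library 3, at 425 FPKM, lay among the wild-type values. Rpl3l fell by 1.46 on the log2 scale in DMD_ND against WT_ND (SE 0.27, 2.76-fold, limma adjusted p = 0.000153) and by 1.09 in DMD_KD against WT_ND (SE 0.27, 2.12-fold, limma adjusted p = 0.00256). Without libraries 1 and 4 of WT_ND the first difference was -1.07 (limma adjusted p = 0.0107), and the second was -0.69 and no longer passed the test (limma adjusted p = 0.0878). Without library 3 of DMD_KD the second was -1.30 (limma adjusted p = 3.49e-05). Among the 102 rows, Rpl3l ranked 3 by mean FPKM in WT_ND, 48 in DMD_ND and 32 in DMD_KD, while Rpl3 ranked 72, 51 and 53.

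**Figure D1:**
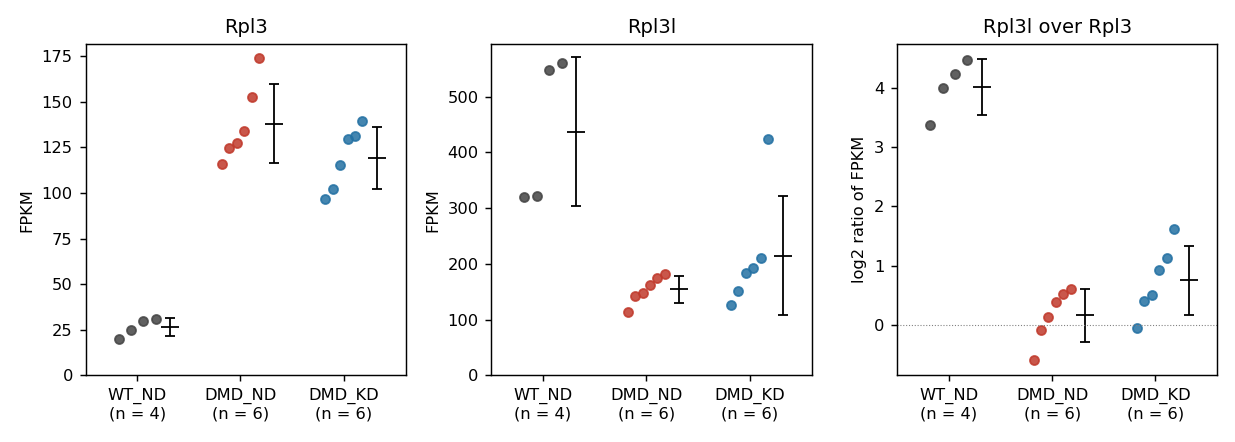
Levels of Rpl3 and Rpl3l in FPKM and the log2 of their ratio, by group. Each point is a library (placed by value within its group, 4 for WT_ND and 6 for each mutant group) and the bar beside the points is the mean with its SD. The ratio panel shows all WT_ND libraries above 3 on the log2 scale and all mutant libraries below 2.

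The ratio of the paralogs does not depend on how libraries are scaled. Rpl3l stood at 22.1, 15.9, 18.8 and 10.3 times the level of Rpl3 in the WT_ND libraries, at 0.658 to 1.51 times (median 1.20) in DMD_ND and at 0.965 to 3.05 times (median 1.65) in DMD_KD. Of the pair's summed FPKM, Rpl3l made up 94.0% ± 1.98 (SD) over the 4 WT_ND libraries, 52.7% ± 7.72 over the 6 of DMD_ND and 62.3% ± 9.34 over the 6 of DMD_KD. Wild-type muscle held nearly all of the pair as Rpl3l, and mutant muscle on either diet held transcripts of both genes at levels of the same order.

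The ratio was 14.5-fold lower in DMD_ND than in WT_ND (log2 difference -3.86, SE 0.30). The two-sided exact permutation test gave p = 0.00476, or 0.0107 when adjusted for 9 ratio tests, and the groups did not overlap. It was 9.64-fold lower in DMD_KD than in WT_ND, with the same exact permutation p, which is the smallest that 4 libraries against 6 allow. Between the diets, the ratio was higher in DMD_KD than in DMD_ND by 0.59 on the log2 scale (SE 0.30), a difference that did not pass the exact permutation test (p = 0.0866, adjusted p = 0.156), and by 0.42 without library 3 of DMD_KD. The pair together stood at 464 ± 135 FPKM (SD) in WT_ND, at 292 ± 9.66 in DMD_ND and at 334 ± 115 in DMD_KD.

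The 190 bases before the annotated start of each gene of the pair are shown because the pair moved in opposite directions. They run 5′ to 3′ on the gene's strand, from RefSeq, build GRCr8. Capitals mark matches on either strand to 6 short motifs: the TATA box TATAAA, the E-box CANNTG that muscle regulatory factors such as MyoD bind, the MCAT box CATTCC of the TEAD factors, the ETS core CCGGAAG, the MEF2 site CTAAAAATA and the YY1 site GCCATCTT.
Rpl3, chr7:113507991-113508180, minus strand: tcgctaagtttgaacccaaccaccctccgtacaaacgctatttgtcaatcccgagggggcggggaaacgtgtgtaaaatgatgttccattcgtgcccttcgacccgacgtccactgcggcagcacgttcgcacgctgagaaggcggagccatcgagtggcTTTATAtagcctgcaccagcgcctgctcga
Rpl3l, chr10:14258256-14258445, plus strand: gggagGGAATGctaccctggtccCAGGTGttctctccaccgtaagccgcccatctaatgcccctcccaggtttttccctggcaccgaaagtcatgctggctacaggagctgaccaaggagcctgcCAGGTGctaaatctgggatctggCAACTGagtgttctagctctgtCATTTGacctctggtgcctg

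The Rpl3l window held E-box letters at 167, 65, 42 and 20 bases before the start and an MCAT match at 185 bases before it. In the Rpl3 window neither was found, and a TATA match lay 30 bases before the start. Such letters are common: in the 300-base promoter windows of the table, 72.1% of all promoters held an E-box match, 14.2% an MCAT match and 14.2% a TATA match. Among other expressed genes the shares were 62.3%, 11.1% and 6.47%. Of the 54 matched ribosomal protein genes, 28 held an E-box match (51.9%), 6 an MCAT match (11.1%) and 7 a TATA match (13.0%). The ETS core was present in 16 of the 54 (29.6%), against 17.7% of other expressed genes and 8.75% of all promoters. YY1 letters were found in 4 of the 54 (7.41%), against 5.43% of other expressed genes and 3.17% of all promoters. Of the 53 matched genes that were expressed, 3 held YY1 letters (5.66%) and 6 a TATA match (11.3%). MEF2 letters were found in 0 of the 54, against 0.358% of other expressed genes and 0.511% of all promoters.

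The other paralog pairs with both genes measured moved less. Rpl22 and Rpl22l1 encode alternative forms of a large-subunit protein that also binds RNA outside the ribosome. Rpl22 stood at 21.7, 18.7, 23.8 and 19.2 FPKM in WT_ND and at 27.2 to 34.7 in DMD_ND, with no overlap, and rose by 0.52 on the log2 scale (SE 0.10, limma adjusted p = 0.000178). Rpl22l1 stood at 23.6, 27.2, 36.4 and 27.0 FPKM in WT_ND and at 23.8 to 29.5 in DMD_ND (log2 difference -0.11, limma adjusted p = 0.411). The ratio of Rpl22l1 to Rpl22 was 1.58-fold lower in DMD_ND than in WT_ND: it ranged from 1.09 to 1.53 in WT_ND and from 0.787 to 0.991 in DMD_ND (log2 difference -0.66, SE 0.12, exact two-sided permutation p = 0.00476, adjusted p = 0.0107). In DMD_KD the ratio ranged from 0.695 to 0.979, with a log2 difference from DMD_ND of 0.01 (SE 0.09, exact permutation p = 0.892).

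Rps27l, a paralog of the small-subunit protein Rps27 that p53 is known to induce, rose together with its parent. Rps27 ranged from 156 to 260 FPKM in WT_ND and from 227 to 370 in DMD_ND (log2 fold change 0.57, limma adjusted p = 0.00752). Rps27l ranged from 37.9 to 51.1 and from 54.3 to 64.5 FPKM in the same groups (0.48, limma adjusted p = 0.00216). Their ratio did not differ beyond its spread (log2 difference -0.08, SE 0.13, exact permutation p = 0.529). Of the other forms made mainly in the testis, Rpl39l and Rpl10l were too low to test, with group means of 0.0706 to 0.169 FPKM and 0.282 to 0.454 FPKM.

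Across the family, DMD_ND libraries held more ribosomal protein transcripts than WT_ND libraries for many genes, by a modest amount. Of the 90 rows that reached 1 FPKM in at least 4 libraries, 39 rose, 1 fell (Rpl3l) and 50 did not pass the limma test at an adjusted p of 0.05. Of all 12119 genes tested in this comparison, 65.7% were called, 31.5% higher and 34.3% lower. Of the 90 fold changes 82 were positive, with a median of 0.39 on the log2 scale (quartiles 0.27 and 0.52), where the median of all tested genes was -0.04. A rise of at least 1.5-fold was called in 19 rows and of at least 2-fold in 3. The shares of all genes past these folds were not counted. The upper quartile of all tested genes was 0.56 on the log2 scale, above the 0.52 of the family. Of the small-subunit rows 17 of 38 rose (median 0.42), and of the large-subunit rows 22 of 52 (median 0.38). Of the rows with an intron 31 of 67 rose, and of the single-block rows 8 of 23, each with a median of 0.39.

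**Figure D2:**
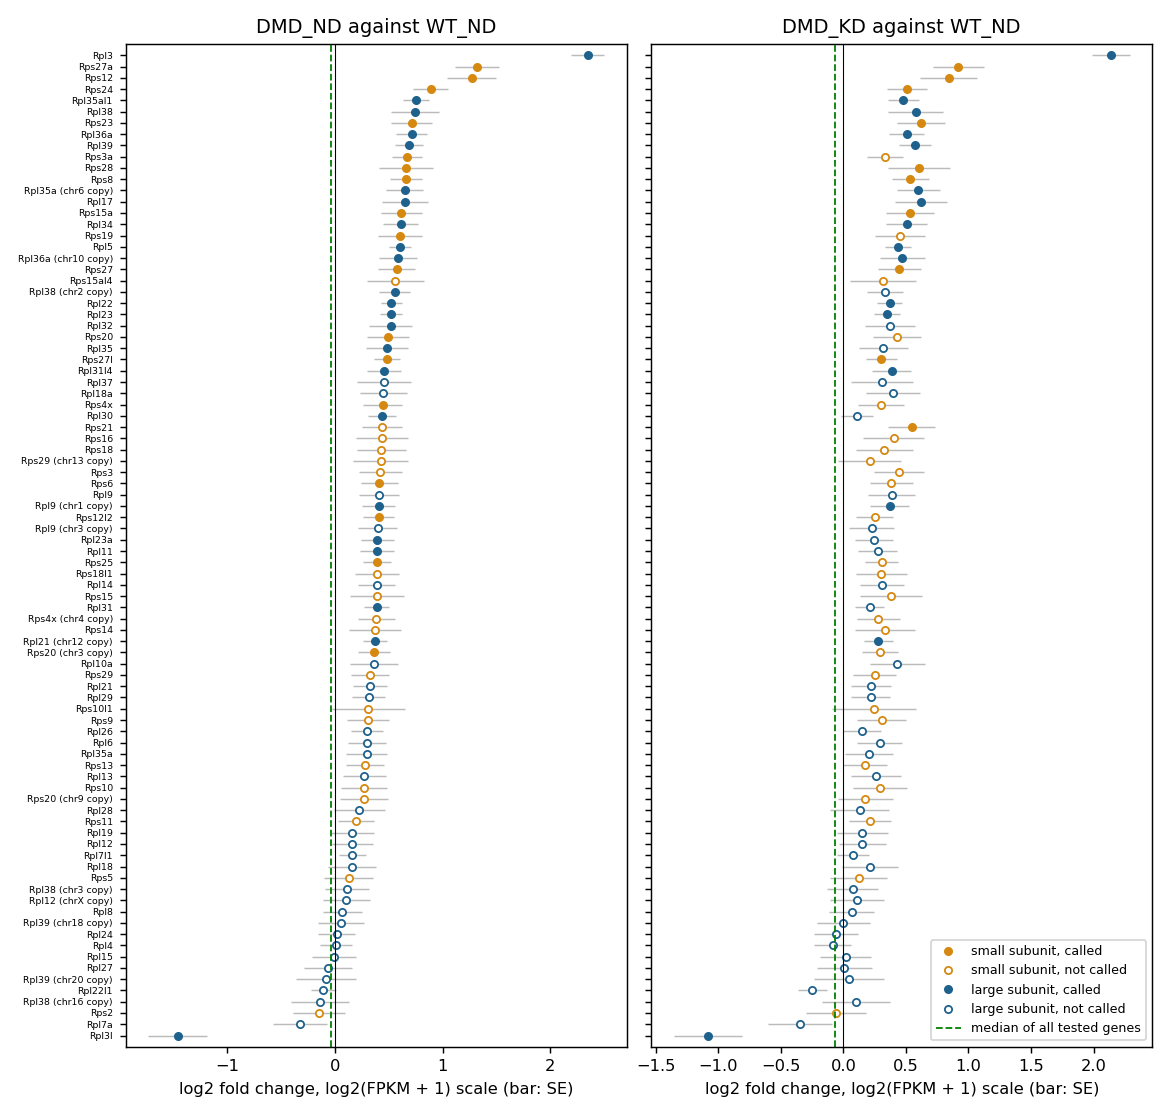
Log2 fold change of 88 of the 90 tested ribosomal protein rows for DMD_ND against WT_ND (left) and DMD_KD against WT_ND (right), with its SE as a bar, ordered by the left panel. Filled points passed the test (limma adjusted p under 0.05), orange marks the small subunit, blue the large subunit, and the dashed line is the median of all 12119 tested genes; Rpl3 and Rpl3l stand at the ends.

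After Rpl3, the 3 rows that rose most were Rps27a, Rps12 and Rps24, all of the small subunit. Rps27a, whose product is made as a fusion to ubiquitin and cut apart, stood at 88.4, 105, 117 and 93.7 FPKM in WT_ND and ranged from 176 to 373 (median 259) in DMD_ND. It rose by 1.32 on the log2 scale (SE 0.21, 2.49-fold, limma adjusted p = 2.71e-05), and the groups did not overlap. Rps12 stood at 100, 54.2, 126 and 56.4 FPKM in WT_ND and ranged from 151 to 279 in DMD_ND, also without overlap, and rose by 1.27 (SE 0.23, 2.41-fold, limma adjusted p = 0.000112). Rps24, a gene mutated in some patients with Diamond-Blackfan anaemia, stood at 59.5, 81.4, 70.8 and 81.7 FPKM in WT_ND and at 121 to 165 in DMD_ND, a rise of 0.89 (SE 0.16, limma adjusted p = 0.000122). Rps3a, a small-subunit protein that rose less than several large-subunit ones, went from 277 to 360 FPKM in WT_ND up to 432 to 624.9 in DMD_ND, a rise of 0.67 (SE 0.14, limma adjusted p = 0.000509). For each of these genes the highest mutant library was library 9 of DMD_ND, which also held the highest summed level of the family in its group.

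The 2 rows nearest the family's median were Rpl11 and Rps25. Rpl11, a large-subunit protein that can also bind the p53 regulator Mdm2, stood at 190, 153, 248 and 151 FPKM in WT_ND and ranged from 220 to 274 in DMD_ND (log2 fold change 0.39, SE 0.16, limma adjusted p = 0.0364). The groups overlapped, because library 4 of WT_ND was above 4 of the 6 mutant libraries. Rps25, a small-subunit protein used by internal ribosome entry sites, stood at 52.5, 42.0, 60.0 and 40.4 FPKM in WT_ND and at 54.8 to 76.0 in DMD_ND (0.39, SE 0.13, limma adjusted p = 0.0160).

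Of the 5 members with the highest mean in WT_ND, Rpl3l passed the test and the other 4 did not. Rps15 stood at 628, 325, 707 and 346 FPKM in WT_ND and at 520 to 766 in DMD_ND (log2 fold change 0.39, SE 0.25, limma adjusted p = 0.185). Rpl27, Rpl19 and Rps29, with WT_ND means of 451, 403 and 402 FPKM, gave fold changes of -0.07, 0.16 and 0.33 (limma adjusted p = 0.801, 0.503 and 0.111). In these genes libraries 1 and 4 of WT_ND, the pair with the high fibre-marker sum, were the highest of their group. The same was seen at the bottom of the ranking, where no row other than Rpl3l fell. Rpl7a stood at 275, 139, 301 and 155 FPKM in WT_ND and at 141 to 195 in DMD_ND (-0.32, SE 0.25, limma adjusted p = 0.272), and Rps2 at 306, 169, 307 and 167 against 180 to 263 (-0.15, SE 0.24, limma adjusted p = 0.597). Both fold changes were positive without libraries 1 and 4 of WT_ND (0.16 and 0.28), as was the one for Rpl27 (0.34), and the number of rows that rose was then 69. Leaving out only library 9 of WT_ND instead, 24 rows rose. The share of all genes that rose in these fits was not counted, so whether the counts are particular to the family cannot be told. The part of the fibre-marker sum in these differences was not tested.

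**Figure D3:**
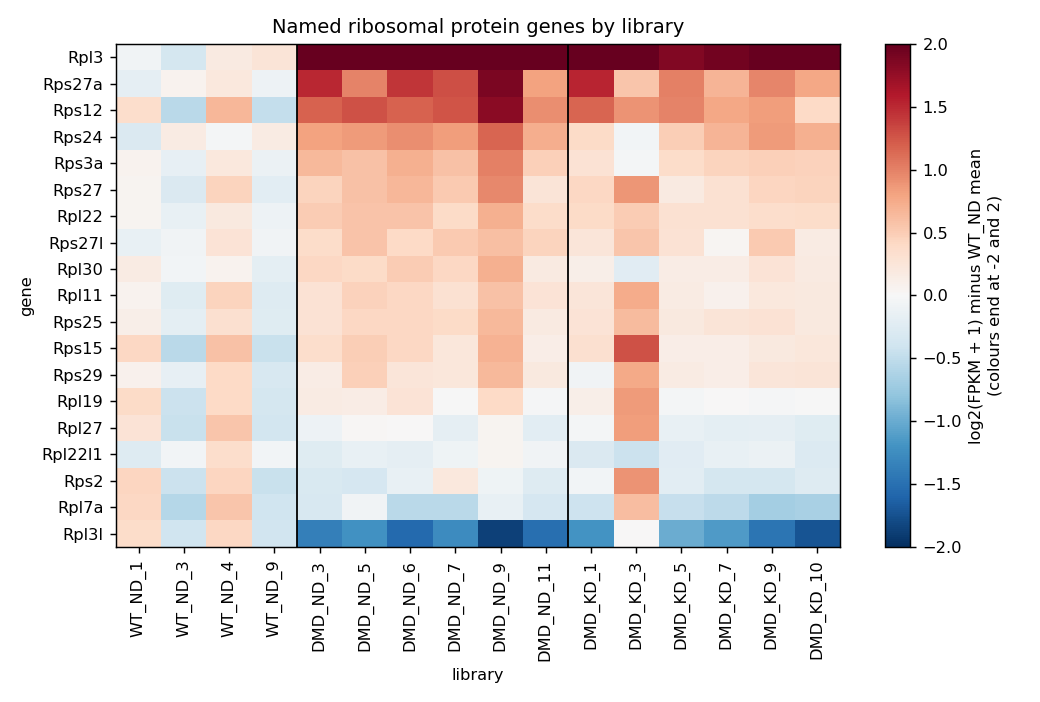
Ribosomal protein genes named in the text by library, coloured by log2(FPKM + 1) minus the mean of the 4 WT_ND libraries (red higher, blue lower, colours ending at -2 and 2); black lines separate WT_ND, DMD_ND and DMD_KD. Rpl3 is red and Rpl3l blue in the DMD_ND libraries, and library 3 of DMD_KD departs from its group in many rows.

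Rows that share a symbol moved together in some cases and apart in others. Rps4x and its chromosome 4 copy 0.44 and 0.38, Rpl36a and its chromosome 10 copy 0.71 and 0.59, and Rpl12 and its X chromosome copy 0.16 and 0.11. Rpl35a gave 0.29 and its chromosome 6 copy 0.65, and Rpl38 gave 0.74 while its chromosome 2, 3 and 16 copies gave 0.55, 0.11 and -0.14. The treatment of reads that match several copies is not stated in the sources used here, and levels of a parent and its copies are uncertain and their fold changes are not independent. Rpl35al1, a low row at 0.637 to 0.918 FPKM in WT_ND and 1.57 to 2.99 in DMD_ND, rose by 0.75 (limma adjusted p = 4.16e-05). The chromosome 16 copy of Rpl38 stood at 0.684 to 6.01 FPKM in WT_ND and 1.17 to 3.03 in DMD_ND (-0.14, limma adjusted p = 0.668). The 12 rows not tested were below the floor on low values; 11 rows never reached 1 FPKM and 1 of these held no read in any library.

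How large the rise of the family appears depends on what each library is scaled to. In deposited FPKM the 102 rows summed to 14846, 10040, 16861 and 9958 in WT_ND, to 14356 to 19591 (median 15802) in DMD_ND and to 13542 to 22642 (median 14059) in DMD_KD. The WT_ND values fell into a high and a low pair, and the groups overlapped. Rescaled so that every library sums to 1000000 (TPM), the same rows summed to 14915, 14099, 17760 and 15984 in WT_ND, to 35886 to 53137 in DMD_ND and to 29008 to 35405 in DMD_KD. On this scale none of the 3 groups overlapped another, and library 3 of DMD_KD, at 31101, lay inside its group.

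As a share of assigned reads, ribosomal protein genes took 0.826% to 1.06% in WT_ND, 1.86% to 2.88% in DMD_ND and 1.55% to 1.87% in DMD_KD. The share of reads from the mitochondrial genome moved in the opposite direction, with 19.7% to 25.1% in WT_ND, 11.9% to 14.0% in DMD_ND and 14.4% to 17.0% in DMD_KD. Rescaled without those genes, the family summed to 26323 to 30532 TPM in WT_ND, 48156 to 73732 in DMD_ND and 41851 to 51680 in DMD_KD, and the mutant groups then overlapped each other but not WT_ND. Tested on TPM, 87 of the 90 rows rose in DMD_ND, 1 fell (Rpl3l, by 0.45, limma adjusted p = 0.00909) and the median was 1.40. On the same scale 76.6% of all genes were called, 70.7% higher and 5.94% lower, with a median of 0.83. Set against the median of all genes, the family's median was 0.43 higher in FPKM and 0.57 higher in TPM. Rpl3 rose by 3.37 and Rps27a by 2.33 on the TPM scale.

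**Figure D4:**
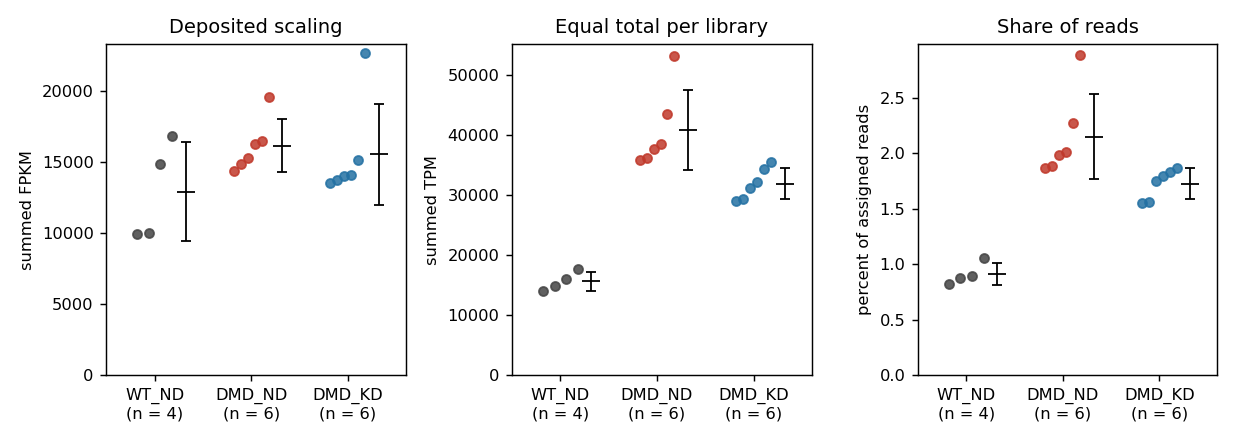
Summed level of the 102 ribosomal protein rows by group in deposited FPKM, in TPM and as a percent of assigned reads. Each point is a library and the bar is the mean with its SD; in FPKM the groups overlap, whereas in TPM the WT_ND libraries reach at most 17760 and the mutant libraries start at 29008.

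Feeding MCTKD to mutant rats changed no ribosomal protein gene past the test. In DMD_KD against DMD_ND, 0 of the 90 rows passed the limma test, 5 had an unadjusted p under 0.05, and limma voom on the recovered reads also called 0. Of all tested genes 0.00825% were called, that is 1 gene, and 1727 had an unadjusted p under 0.05. The fold changes leaned downwards, with 74 of 90 negative and a median of -0.09 where that of all genes was -0.01. On the TPM scale 0 rows were called either, but 69 of 90 had an unadjusted p under 0.05, where 3064 of the 12119 genes did. There 87 of 90 fold changes were negative, with a median of -0.35 where that of all genes was -0.24.

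The 4 rows with the smallest p for the diet were Rpl30, Rps3a, Rps24 and Rpl35al1, and this comparison shares the DMD_ND libraries with that of the genotype. Rps24 ranged from 121 to 165 FPKM in DMD_ND and from 69.6 to 132 in DMD_KD (log2 difference -0.38, SE 0.14, limma adjusted p = 0.264). Rpl30 ranged from 232 to 334 FPKM in DMD_ND and stood at 221, 174, 225, 227, 246 and 231 in DMD_KD (-0.33, SE 0.12, limma adjusted p = 0.246). The row of Rpl30 that carries the reads is a single block. Rps3a (-0.33, limma adjusted p = 0.264) and Rpl35al1 (-0.27, limma adjusted p = 0.293) also missed the threshold. Rpl3l was higher by 0.38 (SE 0.24, limma adjusted p = 0.450) and Rpl3 gave -0.21 (SE 0.14, limma adjusted p = 0.450); without library 3 the Rpl3l difference was 0.16.

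Library 3 of DMD_KD sat apart from the other libraries of its group. Among the 79 ribosomal protein rows with a mean of at least 5 FPKM, it lay above all 5 others in 65, below all of them in 6 (Rpl22l1, Rpl23, Rpl30, Rps24, Rps27a and Rps3a) and within them in 8. Its median ratio to the mean of the others was 1.63. The same counts over all genes were not made, so these are not shown to be particular to the family. In TPM the family's sum in this library, 31101, lay inside the range of its group, 29008 to 35405. Rps15, for instance, stood at 1149 FPKM there and at 518 to 589 in the others, whereas Rps27a stood at 148 there and at 161 to 290 in the others. Its fibre-marker sum of 101936 FPKM was at least 2 times that of every other DMD_KD library, and the part of this in its ribosomal protein levels was not tested.

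Mutant muscle on MCTKD differed from wild-type muscle on the normal diet in the same sense as mutant muscle on the normal diet, with the same WT_ND libraries as controls. In DMD_KD against WT_ND, 25 of 90 rows rose and 1 fell (Rpl3l), with 58.3% of all genes called, 27.3% higher and 31.1% lower. The share of rows that rose was thus near that of all genes. The median was 0.30 where that of all genes was -0.06. Of the 25 rows, 24 had also risen in DMD_ND, in comparisons that share the WT_ND libraries. The same overlap over all genes was not counted. On the TPM scale 85 rows rose and 1 fell, where 61.9% of all genes were called, 57.2% higher and 4.73% lower. Rps27a rose by 0.92 and Rps12 by 0.84 (limma adjusted p = 0.00106 and 0.00452), while Rps3a, at 302 to 430 FPKM, had a difference of 0.33 (limma adjusted p = 0.0514). Leaving out library 3 or 9 of WT_ND lowered the number of rows that rose to 13, leaving out library 4 raised it to 43, and leaving out libraries 1 and 4 gave 61. The share of all genes that rose in these fits was not counted.

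The other parts of the translation machinery are given by their counts and medians in DMD_ND against WT_ND. The lists were drawn up with earlier results of these data known, and their counts stand beside 31.5% of all genes higher and 34.3% lower in FPKM, and 70.7% higher and 5.94% lower in TPM. The ribosomal proteins whose symbols fall outside the name pattern, among them the stalk proteins Rplp0, Rplp1 and Rplp2, gave 0 called of 6, with a median of -0.07. Rpsa and Fau (a fusion of a ubiquitin-like protein and a small-subunit protein) gave 0.31 and 0.28, and Rack1, a signalling scaffold on the small subunit, -0.15, none past the limma test (adjusted p = 0.228, 0.248 and 0.506). On the TPM scale all 6 rose.

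Translation elongation factors and other messenger RNAs with a terminal oligopyrimidine tract were mixed, with 3 of 14 higher, 3 lower and a median of -0.18. Pabpc1, the poly-A binding protein, rose from 15.1 ± 1.96 FPKM (SD, n = 4) to 54.5 ± 4.40 (n = 6), a log2 change of 1.79 (limma adjusted p = 5.17e-09). The elongation factor Eef1b2 rose by 0.65 (limma adjusted p = 0.000233) and Cox7c, a cytochrome oxidase subunit, fell by 0.73 (limma adjusted p = 0.000117). Eef1a2, the form of elongation factor 1A of adult muscle and neurons, fell from 329 ± 120 FPKM (SD, n = 4) to 131 ± 19.8 (n = 6), a change of -1.26 (limma adjusted p = 0.000773). On the TPM scale Eef1a2 no longer passed the test (-0.25), and 13 of the 14 others rose.

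Among initiation factors 18 of 25 were lower and 2 higher, with a median of -0.61. The scaffold proteins Eif4g1 and Eif4g3 fell by 1.03 and 0.90 and the helicase Eif4a1 rose by 1.09 (limma adjusted p = 5.74e-06, 2.29e-06 and 4.95e-06). The mTORC1 list had 13 of 18 lower and 1 higher (median -0.44), including Mtor itself (-1.01), the tract-binding protein Larp1 (-1.18) and the mTORC1 inhibitor Sesn1 (-1.32), each with a limma adjusted p of at most 1.06e-06. These directions depend on the scaling: in TPM 13 initiation factors were higher and 0 lower, and 8 mTORC1 genes higher and 1 lower, with medians of 0.40 and 0.52 under the all-gene median of 0.83.

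Genes that supply ribosomal RNA and assemble ribosomes in the nucleolus were called in both directions. For RNA polymerase I and its factors, 5 of 16 were higher and 2 lower, with a median of 0.13. Myc, a transcription factor that drives ribosome production, averaged 1.48 ± 0.580 FPKM (SD) over the 4 WT_ND libraries, 16.4 ± 7.72 over the 6 of DMD_ND and 7.76 ± 3.12 over the 6 of DMD_KD, and rose by 2.73 in DMD_ND (limma adjusted p = 4.41e-07). Rrn3, the initiation factor of polymerase I, and Polr1b, a core subunit, fell by 0.86 and 0.68 (limma adjusted p = 6.03e-05 and 0.000272). Of 41 nucleolar assembly factors, 6 were higher and 9 lower, shares below those of all genes, with a median of -0.03: Nip7 rose by 0.58, and Imp4 and Utp4 fell by 0.72 and 0.46 (limma adjusted p = 0.00112, 0.000305 and 0.000759). In TPM the fold changes of Rrn3, Polr1b, Imp4 and Utp4 were positive, and 14 of 16 and 40 of 41 genes of these lists were higher.

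The mitochondrial ribosomal proteins (Mrpl and Mrps genes), a set added after values had been seen, stood against the cytosolic ones: 61 of 68 were lower in DMD_ND, 0 higher, with a median of -0.76. In TPM 28 were higher and 6 lower, with a median of 0.20. In DMD_KD against DMD_ND no gene of any of these lists was called.

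Markers of other cell types moved with the genotype as well, and in bulk tissue fewer cells of a type and less RNA per cell cannot be told apart. All 10 fibre markers measured were lower in DMD_ND than in WT_ND (5 of them in TPM), with sums of 64484 to 118765 FPKM in WT_ND, 22318 to 40296 in DMD_ND and 31924 to 101936 in DMD_KD. All 12 macrophage markers were higher, with sums of 27.4 to 69.3 FPKM in WT_ND, 443 to 868 in DMD_ND and 406 to 656 in DMD_KD. All 10 markers of the matrix-producing fibro-adipogenic progenitor cells were higher, with sums of 184 to 390, 1795 to 3088 and 1430 to 2322 FPKM. Markers of satellite cells and regenerating fibres, such as Myog and the embryonic myosin Myh3, were higher in 7 of 9, with sums of 46.5 to 61.3, 216 to 367 and 164 to 260 FPKM.

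Of the adipocyte markers, 5 of 5 were higher, with sums of 38.8 to 102 FPKM in WT_ND, 114 to 360 in DMD_ND and 50.9 to 211 in DMD_KD. T and B cell markers summed to 0.602 to 0.936, 3.21 to 5.71 and 2.89 to 5.21 FPKM over 10 genes, of which 2 could be tested and both were higher. Endothelial markers were lower in 2 of 6 and the rest did not pass the test, with sums of 50.5 to 66.3, 39.9 to 60.1 and 46.6 to 59.0 FPKM. Hba-a2, the red cell marker measured, was lower, at 42.5 to 108, 21.8 to 36.2 and 15.7 to 164 FPKM. Both depend on the scaling: in TPM 4 endothelial markers were higher and 0 lower, and Hba-a2 was not called (-0.17). No marker in these lists stood at 0 in every library, and between the diets none was called. The part of these cell types in the levels of Rpl3, Rpl3l and the other ribosomal protein genes was not tested.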

How the data were processed

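The authors deposited a single table of FPKM values, 31141 Ensembl rat genes by 16 libraries, which also holds symbols, positions, transcript lengths and gene types, per the file headers. Per the submitters' processing notes, the build was mRatBN7.2 and the tools included featureCounts 1.5.0-p3 and HISAT2 2.0.5. Nothing used here states the strand setting, the annotation release or how reads with several matches were handled. The protocols in the labels allow for either a strand-marking or an unmarked library, and reads of overlapping or antisense genes cannot be told apart. FPKM multiplied by transcript length was a whole multiple of the value of 1 read (for 100% of values, with a tolerance of 0.05 reads). This returned reads per gene and library totals.

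Columns were tied to samples through their names, and samples to groups through their titles. The ribosomal protein genes, the gene lists, the paralog pairs and the rule for naming genes were chosen with earlier results of these data known. That rule named both genes of each measured pair; the 5 members highest in WT_ND; the 4 largest and 4 smallest fold changes for DMD_ND against WT_ND among members with a proper symbol; the 4 smallest p-values for the diet; the 2 members nearest the median; and up to 3 genes with the smallest p of each of 7 pathway lists (133 entries, 122 measured). Marker lists for 8 cell types served to describe the tissue. Gene copies and their parents, untested members, stalk proteins, Rpl23 and the mitochondrial set are named outside that rule and were chosen after their values were seen. The values of 1 member symbol are not reported here; its rows stay in the counts.

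The test was limma 3.58.1 (R 4.3.3) on log2(FPKM + 1), with group means over all 16 libraries and eBayes with trend and robust options. It covered the 12119 genes that reached 1 FPKM in 4 or more libraries. P-values were two-sided, adjusted by Benjamini-Hochberg over all tested genes and called under 0.05. The added 1 makes fold changes of low genes too small. Paralog ratios were compared by exact permutation tests over libraries (210 relabellings for 4 against 6 and 924 for 6 against 6), adjusted over 9 tests; the remaining pairs had a gene that was too low or not matched by symbol. Summed levels have no test. TPM are FPKM rescaled to 1000000 per library. The limma fit was tested on simulated data with independent noise for each gene and library. Those data held no shift shared by a whole library, so that test cannot show how libraries that stand apart affect the calls. Alternatives were TPM with and without mitochondrial genes, other pseudocounts and floors, limma voom, array weights, a fit on the compared groups, a replicate block and leave-one-out. Python 3.11.15, pandas 2.3.3, scipy 1.17.1 and matplotlib 3.10.9 were used. Promoter sequences are from RefSeq, build GRCr8, a different build from that of the gene positions.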

Additional observations from a re-analysis of the deposited data

Results flagged for a closer look

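Dixon's criterion at the 95% level was applied to 78 sets of libraries (26 quantities in 3 groups). In 15 of them a library stood apart from the rest of its group. For a single set, chance alone gives this in about 1 in 20. The sets are related quantities of the same 16 libraries and are not independent, so the 15 cannot be set against that rate. In 12 of the 15 the library that stood apart was library 3 of DMD_KD. It was the highest of its group in Rpl3l at 425 FPKM (the others reached 211), Rps27 at 352 FPKM (others up to 261), Rps15 at 1149 (589), Rpl27 at 775 (422), Rpl19 at 700.3 (422), Rps29 at 668 (474), Rpl7a at 317 (154), Rps2 at 423 (217), Rpl11 at 303 (215) and Rps25 at 75.2 (59.0). The summed FPKM of the family was also highest there, at 22642 against at most 15131 in the others. It was the lowest of its group in Rpl30, at 174 FPKM where the others started at 221. In TPM the summed level of that library, 31101, lay inside the range of its group.

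Each of the remaining 3 rested on another library. Rps27l stood at 51.1 FPKM in library 4 of WT_ND and at 37.9 to 40.1 in the other wild-type libraries. Rps12 reached 279 FPKM in library 9 of DMD_ND, where the others of the group lay between 151 and 193. Rpl35al1 stood at 2.99 FPKM in library 5 of DMD_ND and at 1.57 to 1.94 in the others.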

How the results depend on the processing

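The direction of the Rpl3 and Rpl3l changes in the mutant and the calls on the Rpl3l to Rpl3 ratio were the same under every alternative run, apart from the call on Rpl3l in DMD_KD against WT_ND named below. The number of ribosomal protein genes called, in contrast, depended on scaling and on single wild-type libraries. Other pseudocounts (0.1 and 5 FPKM), voom on recovered reads (37 and 24 rows higher for DMD_ND and DMD_KD against WT_ND) and rows with an intron alone left all results of the comparisons within 1.5 times. Depth limits the lowest rows, of which 12 could not be tested. The cause of each difference below was not tested. Apart from the TPM fits, the share of all genes called under each alternative was not counted.

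With TPM scaling, 87 rows were higher for DMD_ND and 85 for DMD_KD against WT_ND, where 70.7% and 57.2% of all genes were. In DMD_ND the calls became 6 higher for the ribosomal proteins outside the name pattern (the stalk list, which also holds Rpsa, Fau and Rack1). The elongation list gave 13 higher and 0 lower, Eef1a2 0 lower, and initiation 13 higher and 0 lower. Polymerase I gave 14 higher and 0 lower, nucleolar assembly 40 higher and 0 lower, and mTORC1 8 higher and 1 lower. Fold changes that turned positive were 0.88 for Rpl22l1, 0.95 for Rpl27, 0.69 for Rpl7a, 0.86 for Rps2, 0.65 for the chromosome 16 copy of Rpl38, 0.86 for Rack1, 0.28 for Cox7c, 0.058 for Eif4g3, 0.094 for Rrn3, 0.18 for Polr1b, 0.26 for Imp4 and 0.47 for Utp4. With TPM but without mitochondrial genes, 85 and 81 rows were higher. Of all 12085 genes tested there, 6345 and 4871 were higher and 1419 and 1239 lower. The lists gave 6 higher (stalk), 11 higher and 0 lower (elongation), 6 and 3 (initiation), 12 and 1 (polymerase I), 27 and 0 (nucleolar assembly) and 2 and 6 (mTORC1). Positive there were Rpl22l1 at 0.53, Rpl27 at 0.58, Rpl7a at 0.32, Rps2 at 0.50, the Rpl38 copy at 0.41, Rack1 at 0.49 and Utp4 at 0.13.

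Array weights put least weight on library 3 of DMD_KD (0.129) and libraries 4 and 1 of WT_ND (0.238 and 0.283). They gave 75 and 64 rows higher, 2 genes of the stalk list higher, and 1 gene of the polymerase I list called between the diets. Rpl27 (0.22), Rps2 (0.14) and Rack1 (0.13) turned positive. Leaving out libraries 1 and 4 of WT_ND together was an alternative chosen after seeing the data. It gave 69 and 61 rows higher, and 0 rows lower for DMD_KD against WT_ND. It also gave 2 genes of the stalk list higher, and 3 nucleolar genes higher and 4 lower. Fold changes were 0.34 for Rpl27, 0.16 for Rpl7a, 0.28 for Rps2 and 0.26 for Rack1. A floor of a mean of 5 FPKM, which tests fewer genes, gave 2 higher and 1 lower for polymerase I and 0 higher for mTORC1, and no floor gave 2 rows lower for DMD_KD against WT_ND. The fit on the compared groups gave 16 rows higher for DMD_KD against WT_ND and 5 elongation genes higher for DMD_ND.

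Leaving out each library in turn, the rows higher ranged from 24 to 56 for DMD_ND and from 13 to 43 for DMD_KD against WT_ND, and the rows lower in the latter from 1 to 2. Fold changes for DMD_ND ranged from -0.19 to 0.010 for Rpl22l1, from -0.22 to 0.12 for Rpl27 and from -0.49 to 0.20 for the Rpl38 copy, and the diet difference in the Rpl22l1 to Rpl22 ratio from -0.022 to 0.077.

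Libraries of different groups share replicate numbers. Over 9 pairs of the same number, deviations from the group means correlated at -0.66 to 0.41. Pairs of different numbers were not compared, so these values cannot exclude a pairing or a shared batch. The numbers were not taken as pairs in the main test. With the replicate number as a block, 42 and 22 rows were higher for DMD_ND and DMD_KD against WT_ND, 0 rows lower in the latter (Rpl3l, -0.84), Eef1a2 gave 0 lower, nucleolar assembly 1 higher and 3 lower, mTORC1 8 lower, and the fold changes of Rpl27 (0.29), Rpl7a (0.093), Rps2 (0.19) and Rack1 (0.15) were positive.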
